A study of Homo sapiens with 17 samples.

Results

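Replication-dependent histone mRNAs are transcribed from clustered genes for the linker histone H1 and the core histones H2A, H2B, H3 and H4. They were chosen by symbol among protein-coding genes: any symbol of the older form HIST1H to HIST4H, H1-1 to H1-5, or H2AC, H2BC, H3C or H4C followed by a number. The rule found 57 of the 18869 genes listed, or 57 of 13473 protein-coding genes. They divide into 4 H1, 15 H2A, 16 H2B, 9 H3 and 13 H4 genes, and 46 of them lie on chromosome 6 and 11 on chromosome 1.

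The study asked which RNAs are bound by the nuclear and by the cytoplasmic poly(A)-binding protein, PABPN and PABPC, and how much those RNAs touch the ribosome. In HEK293T cells, an established human embryonic kidney line, a lentiviral construct was switched on by 50 ng/mL doxycycline for 24 h, and cells were crosslinked with formaldehyde. RPS2-STAMP cells express APOBEC1, an enzyme that edits C to U in RNA, joined to the ribosomal protein RPS2, and Control-STAMP cells express APOBEC1 without it. RNA depleted of ribosomal RNA was sequenced from the lysate before immunoprecipitation (Input), from the PABPN immunoprecipitate (PABPN IP) and from the PABPC immunoprecipitate (PABPC IP).

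All groups share the cell line, the doxycycline and the crosslinking. RPS2-STAMP had 3 samples in each fraction. Control-STAMP had 3 in the Input, 3 in the PABPN IP and 2 in the PABPC IP, which makes 17 samples in all. Both IPs of a replicate came from the same lysate, and the model is limited to 1 cell line with an induced APOBEC1 transgene. The paper calls the lysate cytoplasmic, and the labels give no fractionation. All 6 marker genes chosen for HEK293T (VIM, KRT8, KRT18, CDH2, PAX2, LIN28B) were present in the Input, from a TPM of 0.797 for PAX2 to 184 for VIM, with a summed TPM of 264. Markers of leukocytes (PTPRC), hepatocytes (ALB) and erythroid cells (HBB) were not among the genes listed, 0 of 3.

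The deposited table gives 1 average TPM (a transcript level per length, as a share of the library) and 1 normalized EPKM for each gene and fraction. EPKM counts edits per kilobase of transcript, scaled to the number of mapped reads, with the EPKM of the control condition subtracted. It is not divided by the abundance of the RNA. All values are pooled over replicates, so none carries an SD, an n or a p-value. The paper gives the depth of the libraries. Counts of reads and edits for each gene are not in the table, so the number behind each value is unknown. In these bulk values, fewer cells that make a histone mRNA and less of it per cell cannot be told apart.

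Histone mRNAs of this class are made during DNA replication, when new chromatin needs histones. Unlike other mRNAs they end in a short stem-loop and not in a poly(A) tail, and stem-loop binding protein (SLBP) holds that stem-loop through processing, export and translation. Minor polyadenylated forms of some of these genes are known, as are replication-independent histone variants whose mRNAs carry a poly(A) tail as a rule.

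The symbols say nothing of the end of the RNA, so the histone stem-loop was looked for in the genome. It was found on the transcribed strand in the 100 bases after the stop codon of 57 of 57 members. The element has 16 bases, with 6 base pairs in the stem and 4 bases in the loop, and it began 22 to 67 bases after the stop codon, with a median of 35. Both strands were searched in windows of the same length after 19924 protein-coding genes. The motif was present in 72 windows (0.361%) on the transcribed strand and in 0 on the opposite strand. All 15 genes outside the list that held it are also histone genes.

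One stem-loop of a highly expressed member of each family shows how alike the RNA ends are, and 4 more belong to members whose values or stems differ from the rest. The sequences are from hg38, 5′ to 3′ on the gene's strand, with the stem-loop in capitals and 5 bases on each side.
H1-2: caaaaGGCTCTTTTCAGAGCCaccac
H2AC17: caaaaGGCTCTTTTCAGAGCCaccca
H2BC12: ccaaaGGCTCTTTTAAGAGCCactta
H3C1: gcaaaGGCTCTTTTCAGAGCCaccac
H4C3: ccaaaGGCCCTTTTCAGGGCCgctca
H2BC6: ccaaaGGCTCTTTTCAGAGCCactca
H3C6: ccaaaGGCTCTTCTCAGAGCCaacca
H4C9: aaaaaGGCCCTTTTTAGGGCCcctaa
H2AC15: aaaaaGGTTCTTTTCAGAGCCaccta
On the minus strand lie those of H1-2 (ENSG00000187837, chr6:26055739-26055764), H2AC17 (ENSG00000278677, chr6:27892699-27892724), H2BC12 (ENSG00000197903, chr6:27146361-27146386) and H2AC15 (ENSG00000275221, chr6:27837880-27837905). On the plus strand lie those of H3C1 (ENSG00000275714, chr6:26020927-26020952), H4C3 (ENSG00000197061, chr6:26104312-26104337) and H2BC6 (ENSG00000274290, chr6:26184205-26184230). H3C6 (ENSG00000274750, chr6:26225591-26225616) and H4C9 (ENSG00000276180, chr6:27139649-27139674) are on the plus strand too. H2BC6, H3C6, H4C9 and H2AC15 were chosen for printing after their values or stems were seen.

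The 57 stem-loops take 10 forms. The form of H1-2, H2AC17 and H3C1 is the commonest, in 33 members of the H1, H2A, H2B and H3 families, and it is the form of 4 of 4 H1 genes. None of the 13 H4 genes has it. Of these, 8 have the form of H4C3, 4 that of H4C9 and 1, H4C13, a form of its own. The form of H2BC12 is in 6 members, of which 5 are H2B genes and 1 is H2AC21. All 6 stem pairs are Watson-Crick pairs in 55 members, and H2AC11 and H2AC15 have 5.

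Annotated transcripts of these genes are short, with a median of 486 bases and a range of 387 to 2224 for the transcript used for each gene. A single exon makes up all transcripts of 45 members, and 12 have a transcript with more than 1 exon. In 13 members a transcript runs more than 50 bases past the stem-loop, so that 14 have a transcript that is spliced or runs past it and 43 have neither. Annotation of such a transcript does not show that it was made in these cells.

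Reads cannot be assigned with certainty where members share sequence. No stretch of 100 bases was shared with another member in 40 of the 57. In 11, at least 50% of such stretches were shared: the pairs H2AC13 and H2AC14, H2AC18 and H2AC19, H3C14 and H3C15, H4C14 and H4C15, and H4C11 and H4C12, and H2AC17 with a spliced transcript of H3C12. Values of these 11 members are uncertain as values of single genes. In addition, 9 members overlap another listed gene, namely H2AC17, H3C12, H4C3, H2BC4, H2BC5, H2AC7, H3C4, H2BC6 and H2AC21.

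In the Input, the 57 histone mRNAs had a median TPM of 536, against 9.87 over all 13076 protein-coding genes with a TPM. Their median was 43.4 in the PABPN IP and 45.9 in the PABPC IP, where the medians over all protein-coding genes were 25.7 and 16.7. All 57 members had a TPM. Summed over members, TPM was 58667 in the Input, 5767 in the PABPN IP and 6896 in the PABPC IP. These sums are 11.6%, 0.646% and 0.725% of the TPM of all protein-coding genes, and 6.87%, 0.591% and 0.693% of that of all genes. The histone mRNAs were thus a large class in the Input and a small one in both IPs. Among the 100 protein-coding genes with the highest TPM, 27 were members in the Input, 0 in the PABPN IP and 0 in the PABPC IP.

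**Figure D1:**
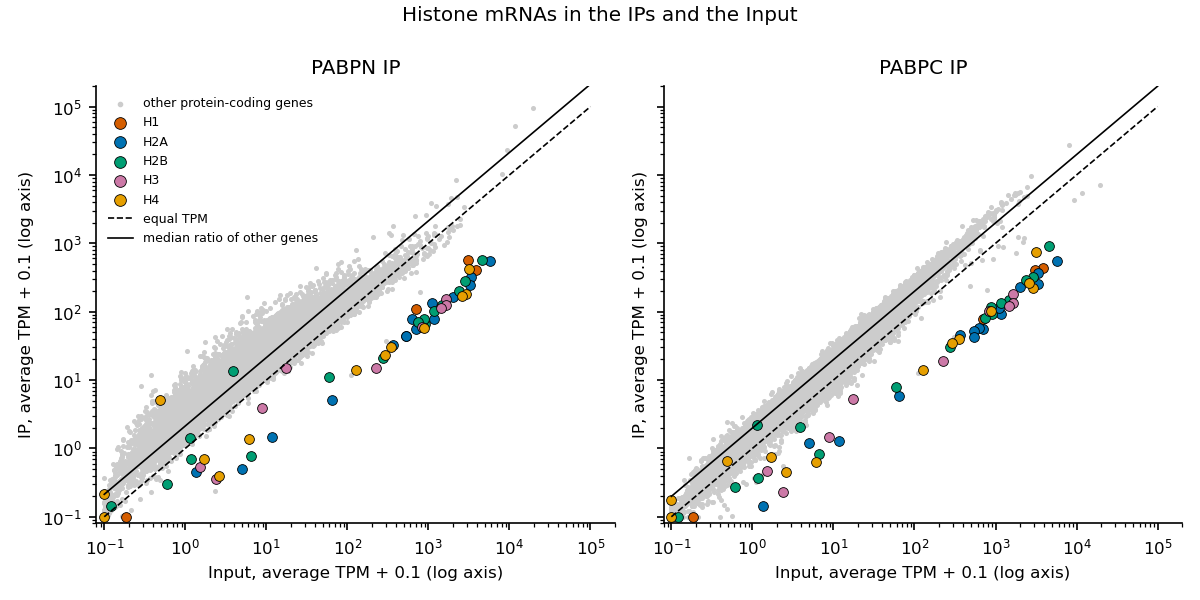
Average TPM in each IP against average TPM in the Input (both log axes, with 0.1 added), with the 57 members coloured by family and other protein-coding genes in grey; the dashed line is equal TPM and the solid line the median ratio of other genes. Members with a high Input TPM lie below both lines in both IPs.

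TPM is a share of each library, so a gene's ratio between fractions is read against that of other genes. The median log2 ratio of IP to Input over all protein-coding genes was 1.14 (PABPN IP) and 0.81 (PABPC IP). Each IP was therefore divided by its median ratio to the Input over 8561 other protein-coding genes that reach a TPM of 5 in every fraction, 2.13 (PABPN IP) and 1.99 (PABPC IP). A pseudocount of 0.5 TPM was then added, and the ratios below are on this scale unless stated otherwise. On it, the median over all protein-coding genes was 0.16 (PABPN IP) and -0.06 (PABPC IP).

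The median log2 ratio of the 57 members was -4.34 for the PABPN IP over the Input, or 20.3-fold lower, with quartiles of -4.68 and -2.19. For the PABPC IP it was -4.02, or 16.2-fold lower, with quartiles of -4.26 and -2.34. No other protein-coding gene lay below the median of the members in either IP. At least 2-fold lower in the PABPN IP than in the Input were 49 of 57 members, against 3.2% of all protein-coding genes. For the PABPC IP the count was 50 of 57, against 3.53%. At least 4-fold lower were 44 members in the PABPN IP, against 0.367%, and 45 in the PABPC IP, against 0.413%. Higher by 2-fold or more was 1 member in the PABPN IP, H4C9, against 11.1%, and 0 were in the PABPC IP, against 0.0382%.

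The 2 IPs share their Input samples, so the counts are not independent of each other. At least 2-fold lower in both were 49 members, against 0.413% of all protein-coding genes. Those genes number 54, so members make up all but 5. The other 5, named after their values were seen, are the histone genes H2AW, H2BS1, H2BU1 and H4-16 and the zinc finger gene ZNF124. Of the 50 protein-coding genes with the lowest ratio, 44 were members in the PABPN IP and 45 in the PABPC IP. The lowest gene that encodes no histone stood at rank 49 in the PABPN IP (RPS3, log2 ratio -1.97) and at rank 46 in the PABPC IP (MT-CO1, -2.41), both named after their values were seen.

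Without scaling, TPM was lower in the PABPN IP than in the Input for 51 members, against 2.84% of all protein-coding genes, and in the PABPC IP for 53, against 7.53%. The median of each of the 5 families was below 0 in both IPs with this scaling, without scaling, and with scaling to all other protein-coding genes above 0.

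**Figure D2:**
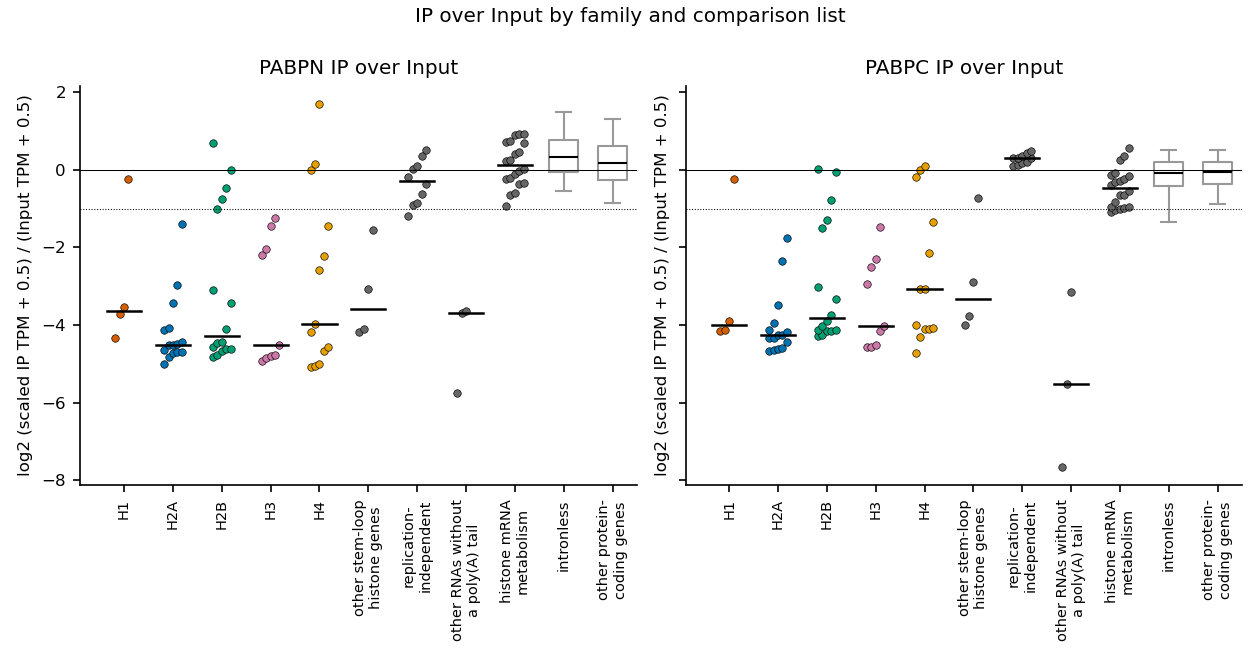
Log2 ratio of scaled IP TPM to Input TPM (0.5 added to each) for the members by family and for the comparison lists; points are genes and bars are medians, and for the 2 large groups the boxes span the quartiles and the whiskers the 5th to 95th percentiles. Medians of the 5 families run from -4.52 to -3.64 for the PABPN IP and from -4.26 to -3.08 for the PABPC IP.

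H1 histones bind the linker DNA between nucleosomes. H1-2 had a TPM of 3867 in the Input, 406 in the PABPN IP and 432 in the PABPC IP. For H1-4 the values were 3090.3, 563 and 411 in the same order. H1-3 had 697, 111 and 78.6. All 3 were far higher in the Input than in either IP. H1-5 was close to absent, with a TPM of 0.0861 in the Input, and it was listed at 0 in both IPs. H1-4 and H1-3 were less low in the PABPN IP (log2 ratios of -3.54 and -3.73) than in the PABPC IP (-3.90 and -4.12). H1-2 had ratios of -4.34 and -4.15. The family median was -3.64 (PABPN IP) and -4.01 (PABPC IP), and 3 of 4 members were at least 2-fold lower in each.

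H2A pairs with H2B in the nucleosome core. H2AC17 had the highest Input TPM of all members, 5728, and its TPM was 560.0 in the PABPN IP and 560.2 in the PABPC IP. H2AC12 stood at 3369, 319 and 366, in the order of Input, PABPN IP and PABPC IP. H2AC20 stood at 3298, 245 and 255. These are among the most abundant mRNAs of the Input, at ranks 5, 8 and 9 of the protein-coding genes. H2AC13, which shares sequence with H2AC14, had 2017 in the Input, 166 in the PABPN IP and 227 in the PABPC IP. Log2 ratios for the PABPN IP were -4.44 in H2AC17, -4.49 in H2AC12, -4.84 in H2AC20 and -4.69 in H2AC13. For the PABPC IP they were -4.34, -4.19, -4.68 and -4.13. All 15 H2A genes were at least 2-fold lower in the PABPN IP and in the PABPC IP, with family medians of -4.52 and -4.26.

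H2B is the partner of H2A in that dimer. H2BC12 had a TPM of 4605 in the Input, 565 in the PABPN IP and 903 in the PABPC IP, the highest PABPC IP value of any member. H2BC17 followed with 2866, 281 and 317 in that order. H2BC4 had 2364, 204 and 289. Each had more TPM in the PABPC IP than with PABPN, and several times more in the Input. So had H2BC5, with 1487, 124 and 150.1. Log2 ratios were -4.11 (PABPN IP) and -3.34 (PABPC IP) in H2BC12. They were -4.44 and -4.16 in H2BC17, -4.62 and -4.02 in H2BC4, and -4.67 and -4.29 in H2BC5. At least 2-fold lower were 12 of 16 H2B genes in the PABPN IP and 13 in the PABPC IP, and the family medians were -4.28 and -3.82.

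H3 pairs with H4 to form the centre of the nucleosome. H3C1 had a TPM of 1641 in the Input, 153 in the PABPN IP and 182 in the PABPC IP. H3C10 had 1626, 124 and 135 in that order. H3C13 had 1446, 112 and 119.8. These 3 were of like abundance in every fraction. H3C12, part of whose spliced transcript overlaps H2AC17, had 835, 60.4 and 101. In the PABPN IP these 4 H3 genes fell in nearly the same proportion. Their log2 ratios there were -4.50 in H3C1, -4.79 in H3C10, -4.76 in H3C13 and -4.85 in H3C12. For the PABPC IP the ratios were -4.15, -4.57, -4.57 and -4.02. All 9 H3 genes were at least 2-fold lower in both IPs, with medians of -4.50 and -4.02.

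H4 is the partner of H3, and its genes carry the stem-loop forms seen in no other family. H4C3 had a TPM of 3128 in the Input, 425 in the PABPN IP and 736 in the PABPC IP. H4C4 had 2916, 182 and 219 in that order. H4C2 had 2609.7, 167 and 259. H4C3 thus had more TPM than the other two in each IP, from an Input TPM not far from theirs. H4C1 had 881, 56.99 and 102. H4C4 had the lowest ratio of all members in both IPs: its log2 ratio was -5.08 for the PABPN IP, or 33.9-fold lower, and -4.72 for the PABPC IP, or 26.3-fold lower. H4C3 was nearer to the Input, at -3.97 and -3.08. H4C2 stood at -5.05 and -4.32, and H4C1 at -5.02 and -4.09. In each IP 10 of 13 H4 genes were at least 2-fold lower, and the medians were -3.97 and -3.08. With all members included, H4 was the family with the median nearest to 0 in the PABPC IP, and H1 in the PABPN IP. A mean TPM under 5 was found for 6 of the 13 H4 genes. By summed scaled TPM, H2B (14.4-fold lower) and not H4 (14.6-fold lower) was nearest to the Input in the PABPC IP.

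**Figure D3:**
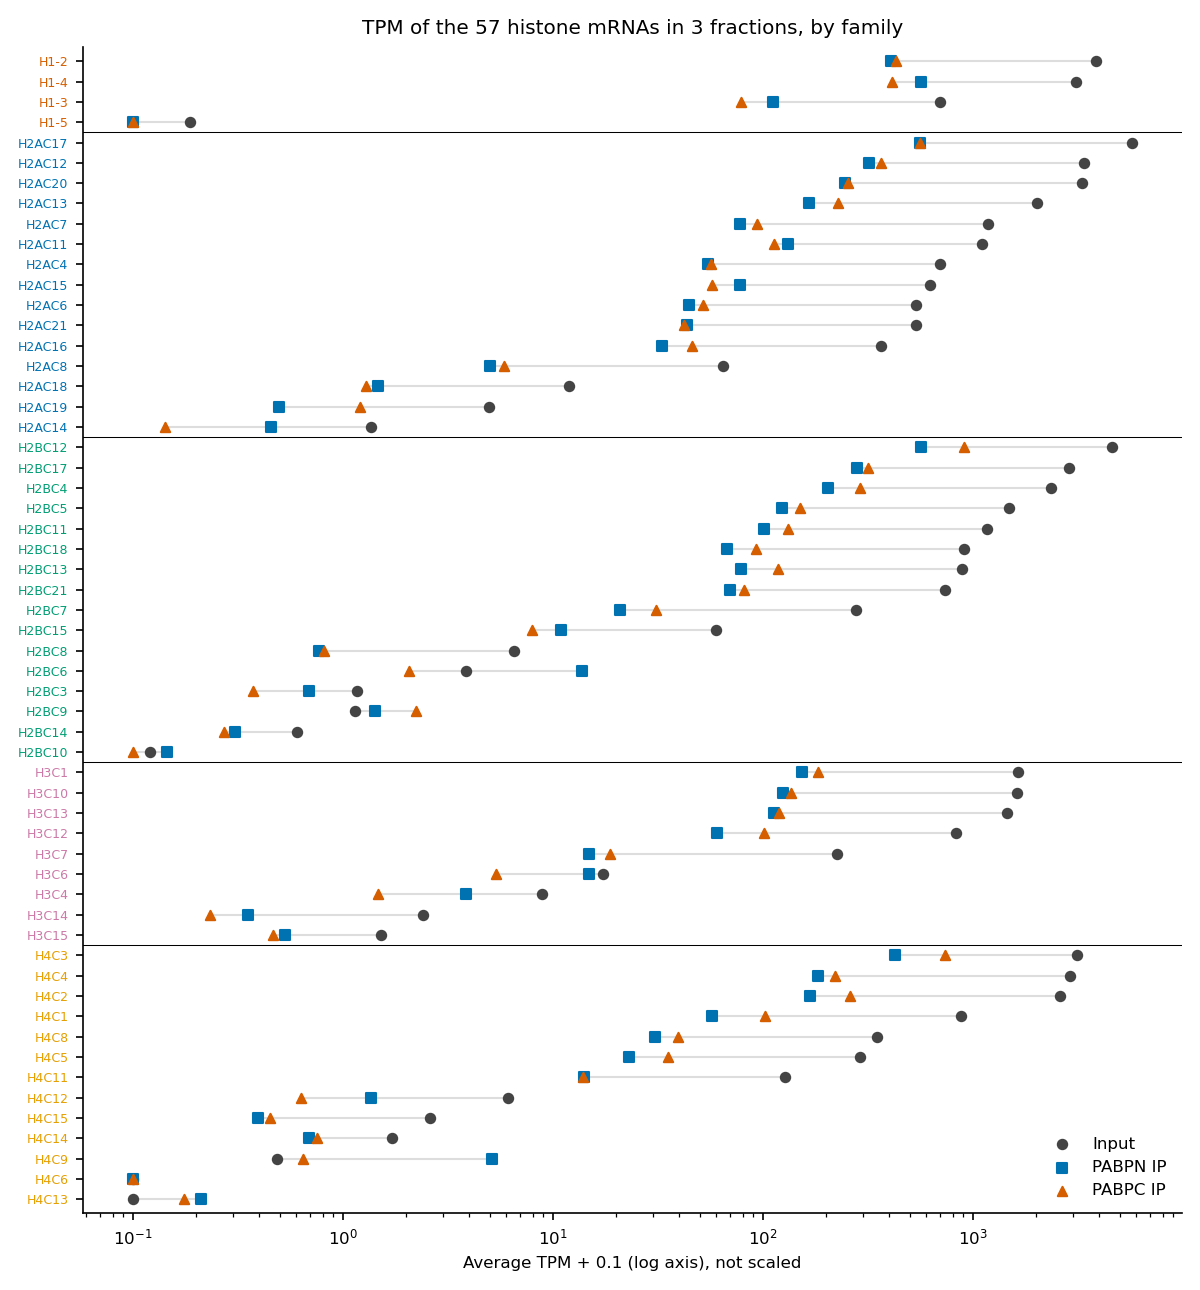
Average TPM of each of the 57 members in the Input (circles), the PABPN IP (squares) and the PABPC IP (triangles), on a log axis with 0.1 added and without scaling, ordered by Input TPM within each family. The Input value is the highest of the 3 for nearly all members, and the exceptions have an Input TPM under 5.

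Over members with an Input TPM of at least 5, the 4 lowest log2 ratios for the PABPN IP were in H4C4, H4C2, H4C1 and H2AC7, the last at -5.005. For the PABPC IP they were in H4C4, H2AC20, H2AC7 (-4.64) and H2AC21 (-4.63). Those least low were mostly members with a small Input TPM. H3C6 had a TPM of 17.2 in the Input, 14.8 in the PABPN IP and 5.24 in the PABPC IP, with log2 ratios of -1.25 and -2.50. H3C4 had 8.73, 3.75 and 1.38 in the same order, with ratios of -2.03 and -2.95. H4C12, which shares sequence with H4C11, had 6.01, 1.26 and 0.531, with ratios of -2.58 and -3.08. H3C6 was the least low of these members in both IPs, and it is among the genes with a transcript annotated past the stem-loop. H2BC8 followed at -3.10 (PABPN IP) and -3.01 (PABPC IP), and H4C3 at -3.08 completes the 4 for the PABPC IP.

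A mean TPM of at least 5 over the 3 fractions was reached by 39 members and missed by 18. The median log2 ratios of the 18 were -1.42 (PABPN IP) and -1.41 (PABPC IP), and 11 of them were at least 2-fold lower in each IP. At such levels the pseudocount of 0.5 sets much of each ratio: summed over the 18, scaled TPM was 6.40-fold lower than in the Input with PABPN and 10.3-fold lower with PABPC. Members not at least 2-fold lower in the PABPN IP are H1-5, H2BC6, H2BC9, H2BC10, H2BC14, H4C6, H4C9 and H4C13, named after their values were seen, and none of these 8 has an Input TPM above 3.73. The same genes without H2BC6 are those not lower in the PABPC IP. H2BC14 is among them through the pseudocount, with a TPM of 0.501 in the Input and a scaled TPM of 0.0968 and 0.0869 in the IPs. So is H1-5, with a TPM of 0.0861 in the Input and 0 in both IPs. In the PABPC IP so is H2BC10, with 0.0209 in the Input and 0 there. With a pseudocount of 0.1 the counts of lower members are 50 and 51.

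H2BC6 and H4C9 stand apart in the PABPN IP, and both were chosen after their values were seen. H2BC6 had a TPM of 3.73 in the Input, 13.6 in the PABPN IP and 1.97 in the PABPC IP, with log2 ratios of 0.70 and -1.50. H4C9 had 0.385, 5.03 and 0.545, with ratios of 1.69 and -0.19. Their TPM was higher in the PABPN IP than in the other fractions. The stem-loop of H2BC6 printed above has the commonest form, and that of H4C9 is shared with H4C12, H4C14 and H4C15. H2BC6 overlaps another listed gene and has a spliced transcript that runs past the stem-loop, and H4C9 has neither. H2BC9, also chosen after its values were seen, had its highest TPM in the PABPC IP, with 1.04 in the Input, 1.32 in the PABPN IP and 2.13 in the PABPC IP. H4C6 was listed at 0 in all 3 fractions, and H4C13 at 0 in the Input.

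The 14 members with a transcript that is spliced or runs past the stem-loop had median log2 ratios of -4.58 (PABPN IP) and -4.06 (PABPC IP). For the 43 without one the medians were -4.14 and -3.996. The groups differ in abundance, since 2 of the 14 and 16 of the 43 have a mean TPM under 5, and the part of abundance in these medians was not tested. In the PABPN IP 13 of the 14 and 36 of the 43 were at least 2-fold lower, against 3.2% of all protein-coding genes. In the PABPC IP 14 of the 14 and 36 of the 43 were, against 3.53%.

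After scaling, 37 members (64.9%) had more TPM in the PABPC IP than with PABPN and 18 had less, with 2 listed at 0 in both. Of all protein-coding genes, 38.7% had more in the PABPC IP. Without scaling the members' counts were 35 (61.4%) and 20, against 35.3% of all protein-coding genes with more in the PABPC IP. With scaling to all other protein-coding genes above 0 they were 41 (71.9%) and 14, against 49.1%. Differences between the IPs were small beside those from the Input, with a median log2 ratio of PABPN IP to PABPC IP of -0.19. Of the families, H2A (11 of 15), H2B (11 of 16) and H4 (9 of 13) had most members higher in the PABPC IP. H3 had 5 of 9, and H1 had 1 of 4.

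Members kept their order of abundance across fractions. Spearman's rho between Input TPM and IP TPM over the 57 members was 0.976 (PABPN IP) and 0.984 (PABPC IP). Over 13019 other protein-coding genes it was 0.943 and 0.980. Genes are not independent replicates, and the points of each relation share their libraries, their lysates and the Input. Within the Input, the 4 members of highest TPM held 29.9% of the members' TPM and the 10 highest held 60.5%.

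Genes for replication-independent histones served as histone mRNAs with a poly(A) tail. All 10 on that list had a TPM, with a median of 77.4 in the Input, 118 in the PABPN IP and 176 in the PABPC IP. Their median log2 ratio was -0.28 (PABPN IP) and 0.30 (PABPC IP), and without scaling 0.80 and 1.23, so that the first changes sign. Only H2AZ1, which encodes an H2A variant, was at least 2-fold lower in the PABPN IP with the main scaling (-1.19), while 0 were without scaling and 3 with scaling to all other protein-coding genes above 0. In the PABPC IP the count was 0 under each of these. H2AZ1 had a TPM of 555 in the Input, 518 in the PABPN IP and 1491 in the PABPC IP. H3-3B, for the variant H3.3, had 125, 140.4 and 309. At a like Input TPM, the members H2AC6 and H2AC21 had 536 in the Input, with 44.4 and 43.4 in the PABPN IP and 51.6 and 42.0 in the PABPC IP; both were picked for that Input value after it was seen.

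H2AX, whose gene makes an mRNA with a stem-loop and one with a poly(A) tail, lay between the classes. Its TPM was 649.6 in the Input, 475 in the PABPN IP and 780.5 in the PABPC IP, with log2 ratios of -1.54 and -0.72. Without scaling its PABPC IP value exceeds the Input value, so that the direction there depends on the scaling. In all, 15 histone genes outside the symbol rule hold the stem-loop. Another 3 of them were added after the data were seen, and values of the rest are not given as a group. H2AW stood at 779, 195 and 209, again in the order of Input, PABPN IP and PABPC IP, with ratios of -3.08 and -2.88. H2BU1 had 303, 36.6 and 43.0, with ratios of -4.10 and -3.78. H4-16 had 109.9, 11.9 and 12.8, with ratios of -4.18 and -3.99. These 3 were low in both IPs, but they were picked with the data known and do not stand for the rest.

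Of 8 RNAs known to lack a poly(A) tail outside the histone class, 6 were listed and 3 had a TPM, all of them made by RNA polymerase III. 7SK, which holds an elongation factor inactive, had a TPM of 174271 in the Input, 28629 in the PABPN IP and 1725 in the PABPC IP, with log2 ratios of -3.70 and -7.65. RN7SL1, the RNA of the signal recognition particle, had 128398, 5066 and 5547, with ratios of -5.75 and -5.52. RNY1, a Y RNA, had 42.5, 6.27 and 8.66, with ratios of -3.64 and -3.15. All 3 were lower in both IPs, and the members' medians lie within their range in both IPs.

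Genes without introns were a further comparison, since 45 members have a single exon in every transcript; the comparison genes were not matched to the members in length. Of 232 intronless protein-coding genes outside the members, 197 had a TPM. Among them, 184 are not mitochondrial, and their median log2 ratio was 0.30 (PABPN IP) and -0.06 (PABPC IP), or 1.26 and 0.75 without scaling. At least 2-fold lower were 2 of the 184 in the PABPN IP and 4 in the PABPC IP. The 13 mitochondrial genes had medians of 0.39 and -1.90, and all 13 were at least 2-fold lower in the PABPC IP with the main scaling. Without scaling the medians were 1.48 and -0.91, and 6 of the 13 were lower by that much in the PABPC IP.

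The list of 20 genes for histone mRNA transcription, processing and decay was complete in the table. Their median log2 ratio was 0.12 (PABPN IP) and -0.47 (PABPC IP). Without scaling these were 1.19 and 0.51, and with scaling to all other protein-coding genes above 0 they were -0.08 and -0.39, so that the sign depends on the scaling in both. With the main scaling 0 were at least 2-fold lower in the PABPN IP and 3 with PABPC: CASP8AP2 (-1.09), NPAT (-1.04) and UPF1 (-1.01). Without scaling the counts were 0 and 0, and with the other scaling 1 and 1. SLBP, whose protein binds the stem-loop, had a TPM of 90.2 in the Input, 99.6 in the PABPN IP and 168 in the PABPC IP. NPAT, the histone gene coactivator, had 8.25, 30.3 and 7.47. No gene of this list came near the members' medians in either IP.

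Editing asks how much the RNAs in each fraction met RPS2-bearing ribosomes. Normalized EPKM was above 0 in 40 of 57 members in the Input (70.2%), against 67% of all protein-coding genes. In the PABPN IP it was above 0 in 39 (68.4%), against 69.2%, and in the PABPC IP in 37 (64.9%), against 74.5%. The members' shares in the Input and the PABPN IP were near the background. In the PABPC IP the share was 74.4% over the 39 members with a mean TPM of at least 5 and 44.4% over the other 18. The background was not filtered by TPM, so neither share can be set directly beside it. Across the 3 fractions, 20 members were above 0 in all (35.1%), against 41% of all protein-coding genes, and 22 in 2 (38.6%), against 34%. Another 12 were above 0 in 1 fraction (21.1%), against 19.5%, and 3 in none (5.26%), against 5.44%. These shares lie near those of all protein-coding genes.

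The median normalized EPKM of the members was 0.0659 in the Input, 0.0716 in the PABPN IP and 0.0423 in the PABPC IP. Over all 13473 protein-coding genes the medians were 0.0126, 0.0199 and 0.0277. Editing at or above 0.1 EPKM, a threshold set after the data were seen, was reached by 24 members in the Input (42.1%), against 13.3%. It was reached by 24 in the PABPN IP (42.1%), against 12.7%, and by 23 in the PABPC IP (40.4%), against 18%. The members' median EPKM depended on which members were included. Over the 37 members that reach a TPM of 5 in both IPs, it was 0.0754 in the Input, 0.112 in the PABPN IP and 0.110 in the PABPC IP. Over the 46 members with under 50% of 100-base stretches shared, the medians were 0.0379, 0.0769 and 0.0175, and the last lies below the 0.0277 of all protein-coding genes in the PABPC IP. Among the 100 protein-coding genes with the highest EPKM, 3 were members in the Input, 9 in the PABPN IP and 2 in the PABPC IP.

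EPKM rose with TPM among protein-coding genes, so the members were also set beside genes of high abundance. An Input TPM of at least 500, a class set after the data were seen, was reached by 29 members and 97 other protein-coding genes. Median EPKM in the Input was 0.0973 for the 29 members and 0.384 for the 97 others. It was 0.0974 and 0.105 in the PABPN IP, and 0.139 and 0.289 in the PABPC IP. Beside genes of this Input abundance, the members had a lower median EPKM in the Input and the PABPC IP and a similar one in the PABPN IP. The classes differ in IP abundance, since the members fall far below the others there.

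**Figure D4:**
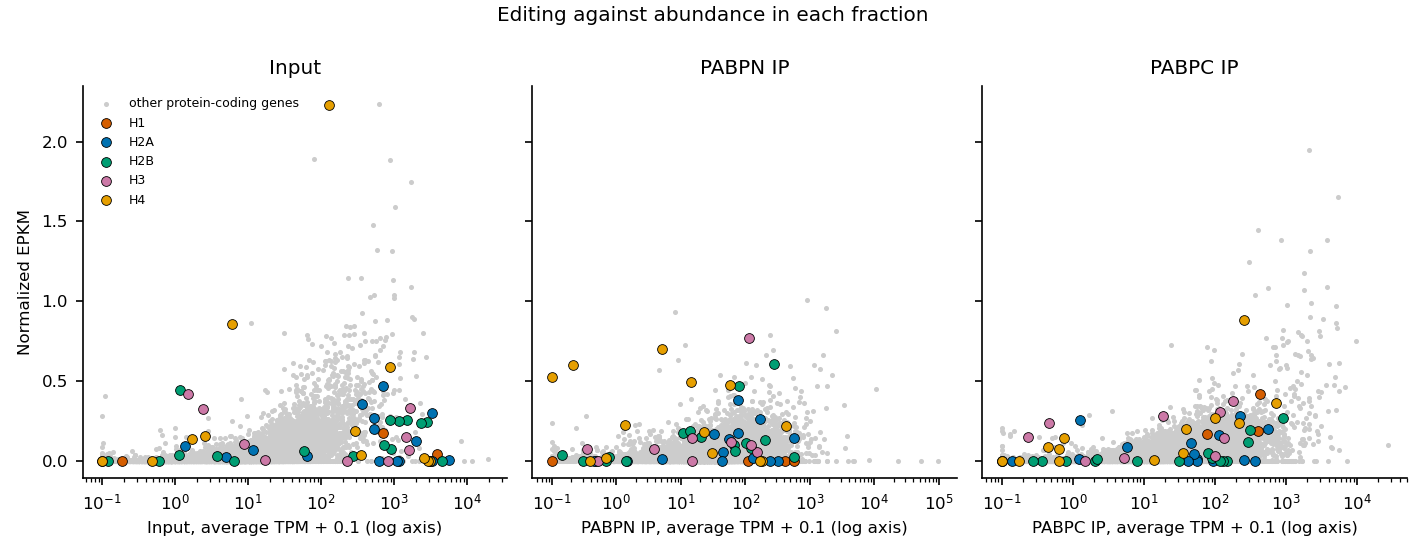
Normalized EPKM against average TPM (log axis, 0.1 added) in each of the 3 fractions, with the 57 members coloured by family and other protein-coding genes in grey. In the Input, the median EPKM of members with a TPM of at least 500 is 0.0973, against 0.384 for the other genes of that TPM, with H4C1 and H2AC4 above the latter, and some members with a TPM under 10 lie above nearly all others there.

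Over the 57 members, Spearman's rho between TPM and EPKM in the same fraction was 0.0351 in the Input, 0.0827 in the PABPN IP and 0.485 in the PABPC IP. For the 13019 other protein-coding genes it was 0.629, 0.361 and 0.588. Abundance and EPKM were thus nearly unrelated over the 57 members in the Input and the PABPN IP. These include the 11 with at least 50% of 100-base stretches shared, and their part in rho was not tested. The points share a library and its depth, and members with shared sequence are not separate points.

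The 4 members with the highest EPKM in the Input were H4C11, H4C12, H4C1 and H2AC4. H4C11 had an EPKM of 2.23 in the Input, 0.493 in the PABPN IP and 0.00234 in the PABPC IP, at an Input TPM of 127. It stood at rank 2 of all protein-coding genes in the Input. H4C12, which shares most of its sequence with H4C11, had 0.858, 0.220 and 0.0712 at an Input TPM of 6.01, and the 2 cannot be told apart in their shared stretches. H4C1 was edited in all 3 fractions, with 0.585, 0.473 and 0.270. H2AC4 had 0.467 in the Input, 0.134 in the PABPN IP and 0.00986 in the PABPC IP. All 4 had their highest EPKM in the Input.

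In the PABPN IP the highest EPKM values were in H3C13, H4C9, H2BC17 and H4C13. H3C13 had 0.148 in the Input, 0.771 in the PABPN IP and 0.303 in the PABPC IP, and H2BC17 had 0.241, 0.607 and 0.189. Both were above 0 in every fraction and highest in the PABPN IP. H4C9 had 0.702 and H4C13 had 0.597 in the PABPN IP, and each was listed at 0 in the Input and the PABPC IP. The PABPN IP TPM of H4C13 was 0.112.

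In the PABPC IP the highest values were in H4C2, H1-2, H3C1 and H4C3. H4C2 had an EPKM of 0.0155 in the Input and 0.883 with PABPC, and its PABPN IP value was listed at 0. H1-2 had 0.0395 in the Input and 0.418 with PABPC, and it too was listed at 0 in the PABPN IP. Both thus had their highest normalized EPKM in the PABPC IP. Each value is a pooled one after control subtraction, with an unknown number of edits, so a listed 0 does not show an absence of editing. H3C1 had 0.327 in the Input, 0.0535 in the PABPN IP and 0.371 in the PABPC IP. H4C3 was listed at 0 in the Input and had 0.219 in the PABPN IP and 0.359 in the PABPC IP. No member was among the 4 highest in more than 1 fraction.

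**Figure D5:**
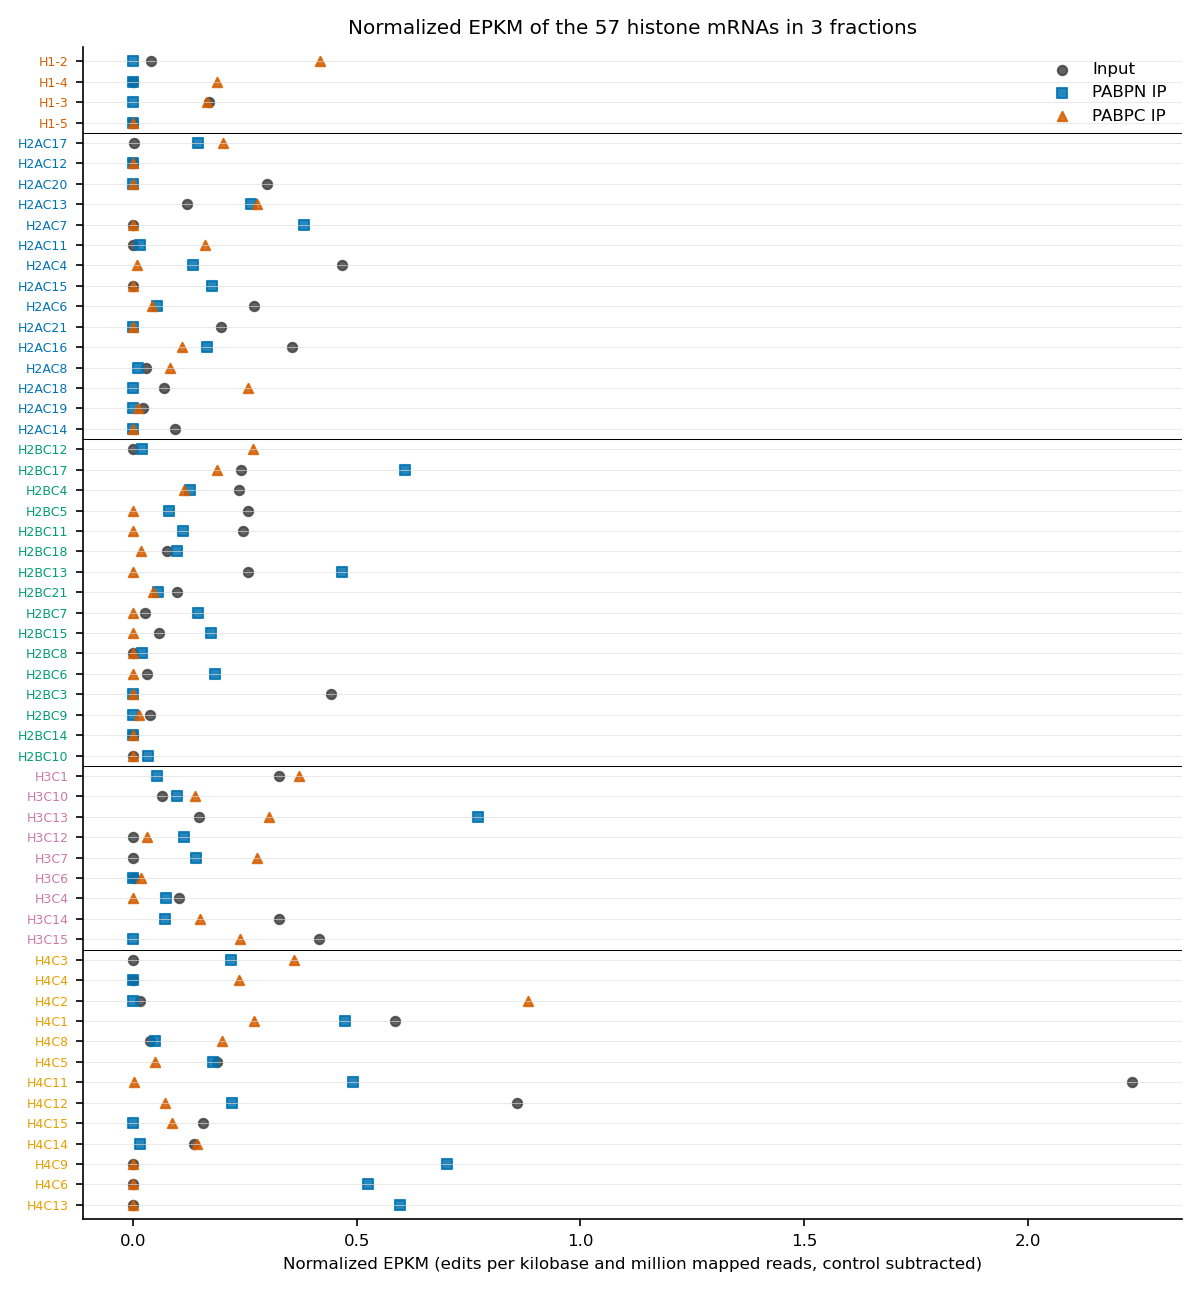
Normalized EPKM of each of the 57 members in the Input (circles), the PABPN IP (squares) and the PABPC IP (triangles), in the same order as the plot of their TPM. The fraction with the highest EPKM differs from gene to gene, and H4C11 in the Input, at 2.23, is the highest value of any member.

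The fraction with the highest EPKM was the Input in 22 of 57 members, a larger share than the 22.5% of all protein-coding genes. It was the PABPN IP in 15 of 57, a smaller share than 33.2%, and the PABPC IP in 17 of 57, a smaller share than 38.8%. Another 3 of 57 were tied at 0, against 5.44%. Counts above 0 by family are small, and differences between families were not tested. H1 had 0 of 4 genes above 0 in the PABPN IP and 3 in the PABPC IP. H2B had 13 of 16 above 0 in the PABPN IP and 6 in the PABPC IP, while the background was 69.2% and 74.5%. The 9 H3 genes had 7 above 0 in the PABPN IP and 8 in the PABPC IP, and the 13 H4 genes had 10 in each. H2A had 9 of 15 in the PABPN IP and 10 in the PABPC IP. Spearman's rho of EPKM between the IPs was -0.0701 over the 57 members and 0.272 over the 13019 other protein-coding genes, and the IPs share their lysates.

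Some members showed editing where little RNA was measured. A TPM under 5 in all 3 fractions was found for 13 members, of which 7 had an EPKM of at least 0.1 in at least 1 fraction (53.8%). Of 2145 other protein-coding genes with so low a TPM, 49 did (2.28%). H4C6, chosen after its values were seen, had 0.526 EPKM in the PABPN IP, while its TPM was listed at 0 in every fraction. TPM was counted with an annotation from which overlapping regions had been removed, and whether edits were assigned with the same annotation is not stated. The part of shared sequence in these values was not tested.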

How the data were processed

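The deposited table holds values in signal units made by the authors: a normalized EPKM for each gene and fraction, and 3 columns of average TPM, treated as signal because each gene is listed 3 times. Per the processing notes, reads were aligned to hg38 with STAR and counted with featureCounts 2.0.2. The paper's methods describe a custom annotation derived from GENCODE release 34, without overlapping regions and readthrough transcripts, and a sum of exonic and intronic TPM. Libraries were stranded and ribodepleted, with paired reads of 100 nucleotides. Which libraries entered each average, and how control EPKM was subtracted where it was the larger, is not stated. Of the 18869 genes, 1964 have no TPM.

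Each gene was taken once. IP TPM was divided by the median ratio to the Input over 8561 other protein-coding genes with a TPM of at least 5, and 0.5 was added before log2. Lower means at least 2-fold. The planned limma fit needs values per sample and could not be run, and the steps were tested on simulated data. Gene models came from GENCODE release 44 on hg38, the build of the processing notes; 55 members matched by identifier, and H2AC18 and H2AC19 by symbol. The row listed as 7SK was assigned to RN7SK by its identifier and locus.

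Genes named are, by rule, the 4 of highest Input TPM in each family, the 4 highest and 4 lowest ratios in each IP at an Input TPM of at least 5, the 4 of highest EPKM in each fraction, and genes of the lists of replication-independent histones, other RNAs without a poly(A) tail and histone mRNA metabolism. Members and lists were chosen with earlier results of these data known. The class at an Input TPM of 500, the EPKM threshold of 0.1, H2AW, H2BU1 and H4-16, the mitochondrial split of the intronless genes and the alternative on shared sequence were chosen after seeing the data. Alternatives changed the pseudocount, the scaling, the filter, the summary, the fold and the members included. Software was pysam 0.24.0, pandas 2.3.3, NumPy 2.4.6, SciPy 1.17.1 and matplotlib 3.10.9 under Python 3.11.15.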

Additional observations from a re-analysis of the deposited data

How the results depend on the processing

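For the medians and counts of the members, 36 alternatives were run. Of these, 28 stayed within the 95% binomial interval of the median, or within a factor of 1.5 of the count. That interval treats members as independent, though some are near-identical copies. It describes the spread between members and not between replicates. None of the 16 alternatives for the log2 medians changed a sign. The median log2 ratio moved from -4.34 in the PABPN IP to -3.25 without scaling, -4.57 over the 39 members with a mean TPM of at least 5 and -3.35 as a mean over members. In the PABPC IP it moved from -4.02 to -3.04, -4.15 and -3.25 in the same order. The first shift is the median ratio no longer divided out, and the cause of the others was not tested beyond the members or summary used. Other alternatives gave -4.55 to -4.09 for the PABPN IP and -4.11 to -3.80 for the PABPC IP, among them the members with under 50% of 100-base stretches shared, chosen after seeing the data. Counts of lower members ranged from 40 to 51 over 8 alternatives. As a mean, EPKM was 0.171 in the Input and 0.145 in the PABPN IP, in place of medians of 0.0659 and 0.0716; the cause was not tested. The PABPC IP median of 0.0423 has a wide interval (0.000639 to 0.139), and within it became 0.112 as a mean, 0.110 over the 37 members that reach a TPM of 5 in both IPs and 0.0175 over the 46 with little shared sequence, where the Input median was 0.0379.

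No paired analysis was possible because each fraction has a single pooled value per gene, and for the same reason leaving out each replicate and the replicate block were not run. Counts of reads and edits for each gene are unknown, so values near 0 and EPKM of members with little RNA have no error. Near-identical copies and overlapping genes limit values of single members.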
